A study of Mus musculus with 26 samples.

Results

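The 13 control embryos of the series were described here, of 26 mouse embryos sequenced in all. They were chosen by label alone and comprised 7 endothelial heterozygotes (TRAF7_EChet, called EChet) and 6 wild types (WT), all collected at E9.5. EChet embryos carried 1 floxed and 1 intact Traf7 allele together with the Tie2-Cre transgene (Traf7 fl/+; Tie2-Cre+), so that 1 Traf7 copy could be lost in cells with Cre activity, the early endothelium and blood cells that arise beside it, while other cells kept both copies. WT embryos had 2 intact alleles and came from intercrosses of Traf7 GLOhet mice, heterozygotes for a global deletion that had been made with EIIa-Cre. In the study EChet embryos were the controls of Traf7-ECko embryos and WT embryos those of Traf7-GLOko embryos, and each control set was deposited in a table with its knockouts. The floxed allele was kept on a C57BL/6 background, the EIIa-Cre line was a B6.FVB line and the Tie2-Cre line a B6.Cg line. Genotype, Cre, mouse line, cross and table separated the same embryos, so these cannot be told apart in any difference between EChet and WT. The labels gave neither litter nor sequencing batch. The p-values set differences between groups against the spread between these embryos, each treated as independent, and could not take litters or batches into account.

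At E9.5 the mouse embryo has a beating tubular heart, a circulation filled with primitive erythroid cells that carry embryonic globins, a neural tube in which the first neurons leave the cell cycle, and a tail bud that is still adding somites and laying down posterior Hox expression. Tail bud genes such as Cdx2, Cdx4 and T are known to be active where the axis elongates. TRAF7 is a RING-domain and WD40-repeat protein that binds the kinase MEKK3 (Map3k3), which acts through MEK5 (Map2k5) and ERK5 (Mapk7) on the flow-responsive factors KLF2 and KLF4 in endothelium.

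Whole embryos freed of yolk sac were sequenced, and values were deposited as FPKM, reads per kilobase of gene, scaled to the depth of the library. Between 17937321 and 24765617 gene reads per EChet embryo and between 16662293 and 23877092 per WT embryo could be recovered from them. After thinning to the smallest library, 19764 to 20415 genes had a read in EChet embryos, against 19263 to 19705 in WT embryos, with no overlap (exact permutation test, two-sided, p = 0.00117, the smallest that 7 against 6 embryos can give). Xist and the Y-linked genes Ddx3y, Eif2s3y, Uty and Kdm5d marked 1 EChet and 2 WT embryos as female. Traf7 itself stood between 18.7 and 22.6 FPKM, median 20.4, in EChet embryos, against 11.1 to 20.6 FPKM, median 19.7, in WT embryos. The groups overlapped and did not differ beyond their spread (log2 difference 0.18, SE 0.12, limma adjusted p = 0.37). The lowest value, 11.1 FPKM, belonged to the library labelled WT 4, far below the other WT embryos, which goes against its label. Its genotype was not tested here. Of 10371 protein-coding genes, 82 were also at least 2-fold below the median of the other WT embryos there. The library was kept as WT in the comparison. Without it the log2 difference was 0.04. Defining endothelial markers were present in every embryo: Cdh5 (VE-cadherin) had 20.02 to 25.9 FPKM in EChet and 18.0 to 22.1 FPKM in WT embryos. In whole embryos, fewer cells of a type and less RNA per cell cannot be told apart.

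The baseline transcriptome was that of a growing embryo with blood. Of 54532 genes listed, 10812 had at least 1 FPKM in every embryo, 10178 of them protein-coding, and 379 had at least 100 FPKM in every embryo. The feature of highest level was Gm23935, an RNA gene of 57 bases, for which a level per kilobase rests on few bases. It was followed by the translation elongation factor gene Eef1a1, which averaged 4734 ± 217 FPKM in EChet and 5108 ± 190 FPKM in WT embryos (SD, n = 7 and n = 6). Rplp1, Rplp0, Rps2 and Rps3a1 of the ribosome, the chaperone gene Hsp90ab1 and Ptma, which encodes the nuclear protein prothymosin alpha, were also among the 15 genes of highest level. The 10 genes of highest mean level over both groups, the same genes in every embryo, held 11.3% to 15.2% of all FPKM in EChet and 11.9% to 13.6% in WT embryos. Gm23935 is among these 10.

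**Figure D1:**
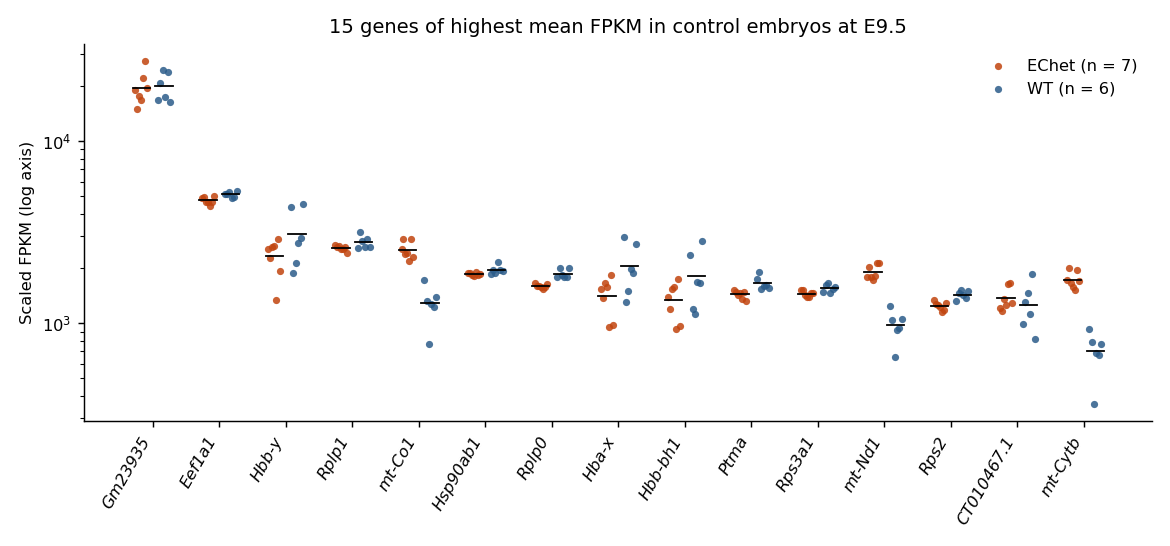
Scaled FPKM on a log axis of the 15 genes of highest mean level, with EChet embryos (left, n = 7) and WT embryos (right, n = 6) as points and group means as bars. The mitochondrial transcripts mt-Co1, mt-Nd1 and mt-Cytb are higher in all 7 EChet embryos than in any WT embryo, while the globins Hbb-y, Hba-x and Hbb-bh1 overlap.

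The embryonic globins Hbb-y, Hba-x and Hbb-bh1, which load primitive erythroid cells with oxygen carrier, were the tissue-restricted transcripts of highest level. Hbb-y had 1348 to 2906 FPKM in EChet embryos, median 2569, and 1884 to 4497 FPKM in WT embryos. All globins together made up 1.13% to 2.17% of FPKM in EChet embryos and 1.44% to 3.36% in WT embryos, a difference within their spread (exact permutation test, two-sided, p = 0.155). Among heart genes the cardiac actin Actc1 stood at 320 to 434 FPKM in EChet embryos and 26.5 to 398 FPKM in WT embryos. The neural progenitor factor Sox2 had 53.7 to 64.9 FPKM in EChet and 52.3 to 74.4 FPKM in WT embryos, while Fabp7, a fatty acid-binding protein gene of the same list, had a wider range of 4.73 to 17.1 FPKM in EChet and 8.25 to 22.8 FPKM in WT embryos. The somite factor Meox1, with 25.7 to 42.8 FPKM in EChet and 21.8 to 41.8 FPKM in WT embryos, and the mesenchyme and neural crest factor Twist1, with 67.5 to 83.3 FPKM in EChet and 69.9 to 103 FPKM in WT embryos, overlapped between the groups.

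Imprinted genes, expressed from a single parental allele and known as growth regulators, were abundant, with H19 at 639 to 939 FPKM in EChet and 771 to 903 FPKM in WT embryos and Mest at 489 to 538 FPKM in EChet and 462 to 505 FPKM in WT embryos. Most markers of decidua and trophoblast were at or near 0. Of 16 decidua and trophoblast genes, 3 passed a mean of 0.1 FPKM, and their leading member Plac1 had 2.34 to 5.26 FPKM in EChet and 1.61 to 3.95 FPKM in WT embryos. Of 18 yolk sac and liver endoderm genes 15 passed that mean, 6 of them with at least 1 FPKM on average. Of 16 macrophage and blood progenitor genes 10 passed it. The progenitor and endothelial gene Cd34 led that list, with 6.92 to 9.42 FPKM in EChet and 8.17 to 11.7 FPKM in WT embryos.

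Variation among embryos of 1 genotype was then ranked, for genes with at least 1 FPKM on average in both groups, by the SD of log2 values above that of genes of like level. Of 11745 genes ranked, the 200 most variable of EChet and of WT embryos shared 92, or 46% of each list, though the groups share no embryo. Of these 92, 50 were small RNA genes or shorter than 200 bases and 16 were pseudogenes, features whose FPKM rests on few or shared reads. Likewise 15 of the 20 genes of largest excess in both groups were such small features, and the other 5 were Gapdh, Ddx3y, Eif2s3y, Uty and Kdm5d. Among protein-coding genes with at least 100 reads per embryo, a ranking chosen after the values were seen, the lists shared 73 genes, or 36.5%.

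The Y-linked genes were at or near 0 in the 3 female embryos. Ddx3y, an RNA helicase gene, was at 0 in the embryos EChet 1, WT 2 and the library labelled WT 4, and between 6.55 and 8.29 FPKM in the other 10. Wdfy1, which encodes a protein that binds phosphoinositide lipids on endosomes, fell into separate ranges within each group: 2.82 to 3.29 FPKM in EChet 1, 2, 4 and 6 and in WT 1, 2 and 4, and 0.248 to 0.477 FPKM in EChet 3, 5 and 7 and in WT 3, 5 and 6. No embryo lay between them, and both ranges occurred in both groups. Wdfy1 is among genes known to differ in sequence or copy number among C57BL/6 substrains or inbred strains. So is Ide, the insulin-degrading enzyme gene, which had 44.6 FPKM in EChet 7 and 15.9 to 28.0 FPKM in the other 12 embryos. Btaf1, a regulator of the TATA-binding protein that also lies on chromosome 19, was highest in EChet 7, with 29.0 FPKM against 12.3 to 23.0 FPKM in the others.

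**Figure D2:**
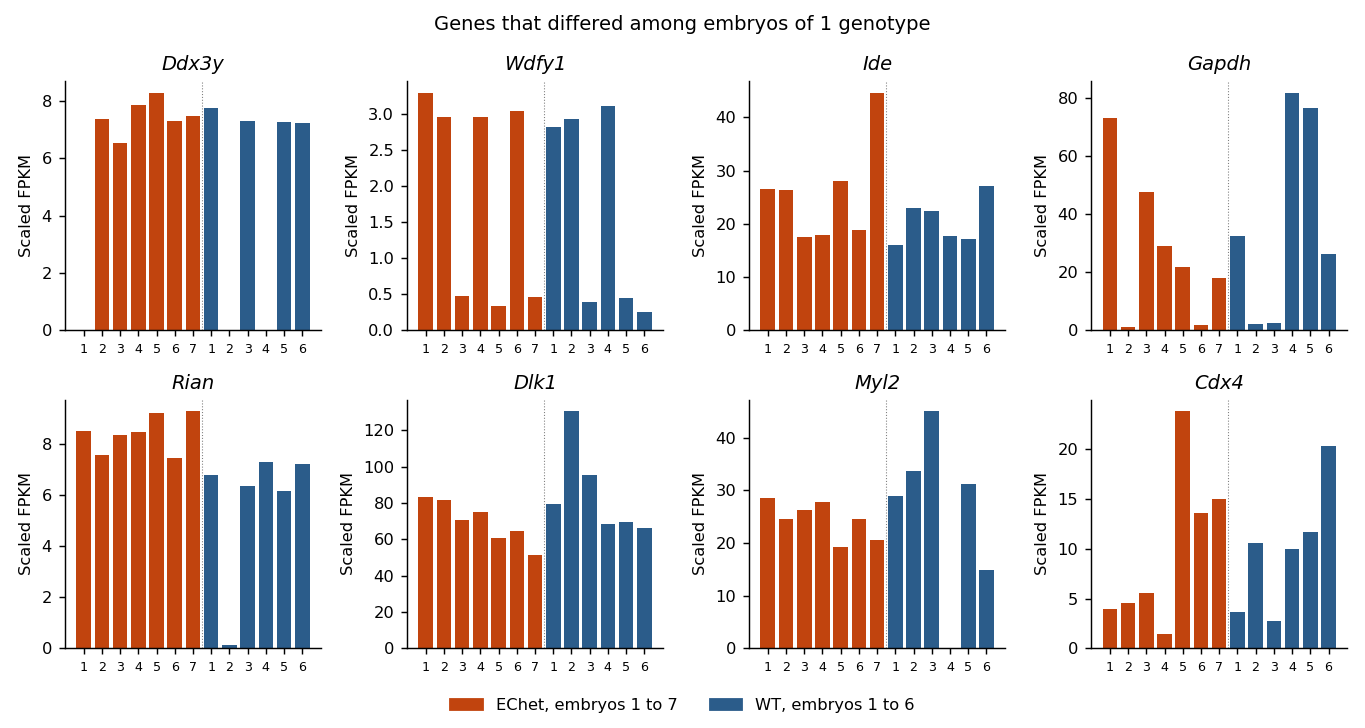
Scaled FPKM (linear axes from 0) of 8 genes in each EChet embryo (left, 1 to 7) and each WT embryo (right, 1 to 6). Wdfy1 is high or low with no embryo between, Rian is near 0 in WT 2 with Dlk1 at its highest there, and Cdx4 ranges from 1.42 to 23.8 FPKM in EChet embryos.

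WT 2 stood apart at the imprinted Dlk1-Dio3 region of chromosome 12, where Meg3, Rian and Mirg are noncoding RNAs known to be expressed from the maternal chromosome and Dlk1, a Notch-like growth regulator, from the paternal one. Rian had 7.44 to 9.27 FPKM in EChet embryos and 6.16 to 7.29 FPKM in the other 5 WT embryos, against 0.152 FPKM in WT 2. Meg3 was at 0.0512 FPKM in WT 2 and at 1.20 to 1.88 FPKM in all others, and Mirg at 0.0672 FPKM in WT 2 and at 0.417 to 0.760 FPKM in all others. Dlk1 had its highest value in WT 2, at 130 FPKM, and 51.3 to 95.4 FPKM elsewhere. Rtl1, the paternally expressed retrotransposon-like gene of the region, had 0.556 FPKM in WT 2, inside the range of 0.267 to 0.576 FPKM of the others. Dio3, the paternally expressed deiodinase gene of the region, was lowest in WT 2, at 0.804 FPKM against 0.921 to 2.19 FPKM.

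Tail bud genes varied in both groups. Cdx4, a caudal-type homeobox factor, had 1.42 to 23.8 FPKM in EChet embryos, median 5.56, and 2.76 to 20.3 FPKM in WT embryos. The highest values were in EChet 5, 6 and 7 and in WT 6, and the lowest in EChet 4 and WT 3. Among EChet embryos EChet 5 was also highest and EChet 4 lowest for T (brachyury), with 9.27 and 0.953 FPKM, and for the homeobox gene Nkx1-2, with 6.91 and 0.838 FPKM. Of 14 tail bud and presomitic mesoderm genes ranked, 7 were among the 200 most variable of EChet embryos, 4 among those of WT embryos, and these 4 were in both.

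Early neuron genes moved the other way. Nhlh1, a factor of newly born neurons, was lowest in EChet 5, at 0.496 FPKM, and highest in EChet 4, at 4.28 FPKM, among EChet embryos; in WT embryos it had 2.02 to 6.22 FPKM, highest in WT 3. The neurofilament gene Nefm had 2.43 FPKM in EChet 5 and 12.8 FPKM in EChet 4, and 20.2 FPKM in WT 3. Over all 13 embryos the mean log2 deviation of the tail bud list and that of the early neuron list, lists compared after seeing both vary, had Pearson's r = -0.66 (permutation p = 0.011) and Spearman's rho = -0.62 (permutation p = 0.026), the only pair of lists tested, and r = -0.79 without EChet 4 and WT 6. Within EChet embryos r was -0.82 (exact permutation p = 0.00714) and within WT embryos -0.55 (exact permutation p = 0.275).

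**Figure D3:**
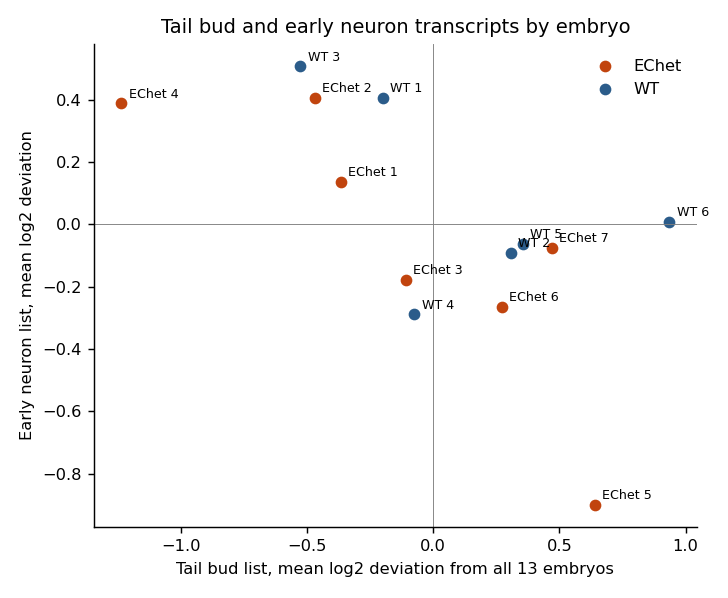
Mean log2 deviation from the 13-embryo mean of the tail bud list (x) and the early neuron list (y), 1 point per embryo. EChet 4 and WT 3 lie at low tail bud and high neuron values, EChet 5 at the opposite corner, and WT 6 has the highest tail bud value with a neuron value near 0.

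Heart genes varied in WT embryos alone. Of 19 cardiomyocyte genes ranked, 18 were among the 200 most variable of WT embryos and 0 among those of EChet embryos, a count that rests on WT 6 and on the library labelled WT 4. Myl2, the ventricular myosin light chain gene, had 19.2 to 28.6 FPKM in EChet embryos, against 14.9 FPKM in WT 6, 0.171 FPKM in the library labelled WT 4 and 28.9 to 45.02 FPKM in the remaining 4. WT 6 had 77 of 10371 protein-coding genes at least 2-fold below the median of the other WT embryos and 20 above it. Besides 14 cardiomyocyte genes it was low in Afp (alpha-fetoprotein), with 0.655 FPKM against 6.29 to 16.7 FPKM in the other WT embryos, in Nkx2-1, a factor of thyroid, lung and ventral forebrain, with 0.168 FPKM against 1.38 to 2.99 FPKM, and in the forebrain factor Nr2e1, with 0.337 FPKM against 1.69 to 3.59 FPKM. The midbrain-hindbrain factor En2 was highest there, at 11.9 FPKM against 3.17 to 4.17 FPKM.

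Some highly expressed genes differed many-fold between embryos of both groups. Gapdh had 0.950 to 73.1 FPKM in EChet and 2.09 to 81.8 FPKM in WT embryos, and Sumo2 had 9.94 to 112 FPKM in EChet and 12.7 to 125 FPKM in WT embryos. Both have near-identical processed copies in the mouse genome, as do Rps27a, Rpl17 and Rpl30, which varied likewise, so these values are uncertain. Col1a1, the fibrillar collagen gene, was low in EChet 7 (18.5 FPKM), WT 2 (17.9 FPKM) and WT 5 (23.1 FPKM), and the remaining embryos lay at 37.1 to 62.4 FPKM.

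Over all genes tested the embryos of 1 group were closer to each other in EChet than in WT. The distance of an embryo to the mean of its group's other embryos was 63.8 ± 4.53 in EChet and 71.7 ± 3.02 in WT embryos (SD, n = 7 and n = 6, Euclidean distance in log2 units; exact permutation test, two-sided, p = 0.00816). Over the 500 genes of highest variance the difference was -2.18 and not past the threshold (exact p = 0.148). In both permutations the distances were held fixed. Distances of 1 group share embryos, and WT distances were taken to the mean of fewer embryos, which by itself lengthens them. These p-values thus treat dependent values as independent.

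EChet embryos were then set against WT embryos. Of 17453 genes with a mean of at least 0.1 FPKM, 2354 (13.5%) were called at a limma adjusted p of 0.05 or less, 1252 (7.17%) higher and 1102 (6.31%) lower in EChet embryos, and in 969 genes (5.55%) the groups did not overlap. The changes were small: the median absolute log2 difference of called genes was 0.30, the median over all genes tested 0.001, and 60 called genes differed by at least 1 on the log2 scale, 36 higher and 24 lower. When embryos were scaled to total FPKM without mitochondrial-genome and globin genes, 2393 genes were higher and 481 lower (83.3% of calls higher, against 53.2% above), with the median over all genes at 0.08. With a correction for gene length 1054 genes were called, 449 higher and 605 lower (42.6% higher). Without the library labelled WT 4, 2327 genes were called, and without WT 3, WT 6 and that library, chosen after the values were seen, 1282. Fold changes are on the log2(FPKM + 0.1) scale, which understates those of low genes.

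Transcripts of the mitochondrial genome, which encodes 13 respiratory chain subunits, were higher in EChet embryos. Of the 13 mRNAs 9 rose, against 7.17% of all genes, and 0 fell, with a list median of 1.01 on the log2 scale. In these 9 every EChet embryo was above every WT embryo, while the groups did not overlap in 5.55% of all genes. mt-Nd2, a complex I subunit, had 828.5 to 1078 FPKM in EChet embryos, median 863, and 268 to 546 FPKM in WT embryos, median 409 (2.31-fold, log2 difference 1.21, SE 0.13, limma adjusted p = 0.00041). mt-Cytb of complex III had 1517 to 2006 FPKM in EChet embryos and 359 to 929 FPKM in WT embryos (log2 difference 1.36, SE 0.17). The lowest WT embryo was WT 3, with 268 FPKM of mt-Nd2. Mitochondrial mRNAs together made up 2.83% ± 0.24 of FPKM in EChet and 1.28% ± 0.32 in WT embryos (exact permutation test, two-sided, p = 0.00117). The 2 mitochondrial rRNAs did not show this: they held 0.0161% to 0.0228% of gene reads in EChet and 0.0132% to 0.0260% in WT embryos (exact p = 0.727). Mitochondrial genes share stretches with nuclear copies, so their counted levels are uncertain.

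Nuclear genes of the respiratory chain and of the cytosolic ribosome were lower. Of 36 nuclear respiratory chain genes 21 fell and 0 rose (median -0.19), and of 39 ribosomal protein genes 25 fell and 0 rose (median -0.21), against 6.31% of all genes called lower. Cox5b, a complex IV subunit, had 28.6 to 45.1 FPKM in EChet embryos, median 40.3, and 59.96 to 71.2 FPKM in WT embryos, median 65.1 (log2 difference -0.76, SE 0.09, limma adjusted p = 0.00041). Ndufb8 of complex I had 16.2 to 18.2 FPKM in EChet and 21.9 to 26.7 FPKM in WT embryos, with no overlap (log2 difference -0.53), and Ndufa13 and Ndufa8 of the same complex were also among the 12 lower genes of smallest p. Rpl8 of the large ribosomal subunit had 868 to 1068 FPKM in EChet and 1203 to 1384 FPKM in WT embryos (log2 difference -0.39). With a correction for gene length the lower calls were 11 of 36 and 11 of 39 genes, while 9 of 13 mitochondrial mRNAs were still called higher. With quantile normalization they were 11 of 36 and 13 of 39 genes.

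**Figure D4:**
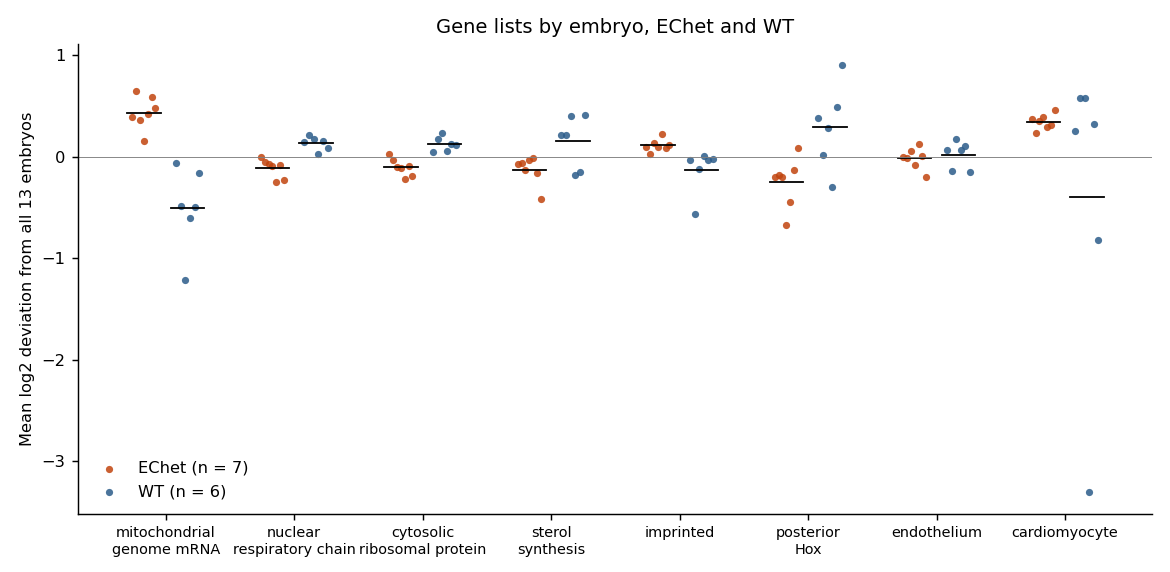
Mean log2 deviation from the 13-embryo mean of 8 gene lists, with EChet embryos (left, n = 7) and WT embryos (right, n = 6) as points and group means as bars. Mitochondrial genome mRNAs do not overlap between the groups, the nuclear respiratory chain and ribosomal lists lie lower in EChet embryos, and the cardiomyocyte list is low in the library labelled WT 4 and in WT 6.

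The direction of calls followed gene length. Tested protein-coding genes were cut by length into 10 bins of like size. Among the 1413 shortest, of 45 to 1644 bases, 0.991% were called higher and 17.2% lower in EChet embryos. Among the 1412 longest, of 9686 to 123179 bases, 34.1% were called higher and 0.283% lower. Embryo by embryo, the median log2 deviation of the longest bin minus that of the shortest was -0.01 to 0.34 in EChet embryos and -0.33 to -0.09 in WT embryos, with no overlap (exact permutation test, two-sided, p = 0.00117). Length moved with genotype, and the part of RNA quality or library preparation in it was not tested.

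**Figure D5:**
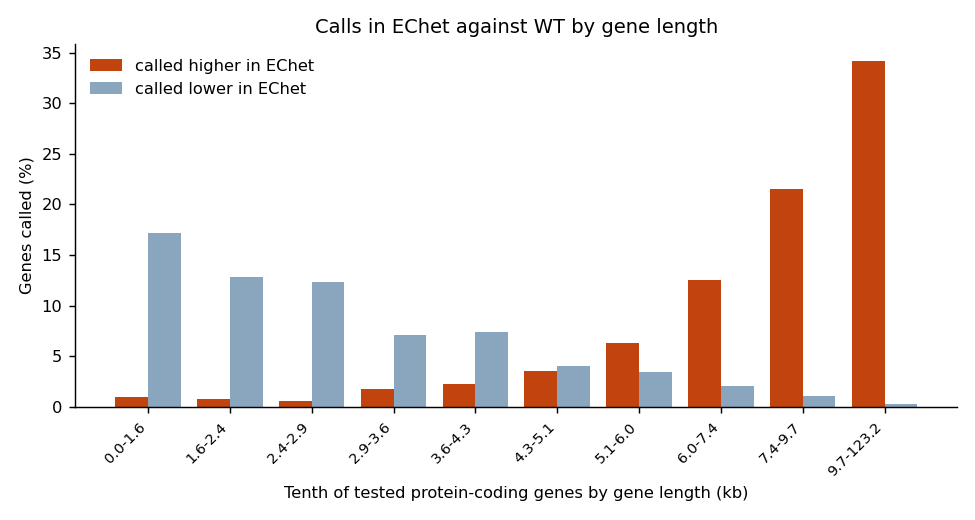
Percent of tested protein-coding genes called higher and lower in EChet against WT embryos, by 10 bins of gene length in kilobases. The share called higher climbs to 34.1% in the longest bin, and the share called lower is largest in the shortest bin, at 17.2%.

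The higher genes of smallest p were, beside the mitochondrial ones, protein-coding genes between 6779 and 19624 bases long, against a median of 3563 bases over genes tested. Mib1, an E3 ubiquitin ligase that activates Notch ligands, had 16.6 to 20.6 FPKM in EChet and 11.2 to 12.7 FPKM in WT embryos (1.54-fold, log2 difference 0.62, SE 0.05, limma adjusted p = 8.1e-05). Nucks1, a chromatin protein, had 98.7 to 110 FPKM in EChet and 71.7 to 82.5 FPKM in WT embryos. The kinase Taok1 (log2 difference 0.77), the X-linked ubiquitin ligase Rlim (0.64), the acetyltransferase Crebbp (0.72), the RNA-binding protein Elavl1 (0.38), the Hippo pathway cofactor Mob1b (0.58), Rc3h2 (0.94) and Lrrc58 (0.63) were higher with no overlap. Among the lower ones were the splicing factor Snrpb (-0.32), the ubiquitin-conjugating enzyme Ube2s (-0.30), the glutathione transferase Gsta4 (-0.40) and Banf1 (-0.33), which binds DNA at the nuclear envelope. Snrpb, Gsta4 and Banf1 are 1976, 1266 and 820 bases long, and Ube2s 5141. Single calls, higher or lower, are not separated here from the trend with gene length. Rpl34-ps1 and Rpl21-ps15, also lower, are copies of ribosomal protein genes and share their reads, so they are uncertain.

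Mtrr and Fastkd3, neighbours read in opposite directions, were both lower in EChet embryos. Mtrr encodes the reductase that keeps methionine synthase active, and Fastkd3 a mitochondrial RNA-binding protein. By the deposited annotation (mm10) Mtrr lies on the minus strand at chr13:68560780-68582149 and Fastkd3 on the plus strand at chr13:68582234-68592338, so that their starts are 85 bases apart. The RefSeq window around the Fastkd3 start (GRCm38.p6, chr13:68581960-68582259, plus strand), which holds the stretch between both starts, is shown because both genes moved together; capitals mark the motifs CCAAT and TGCGCA, found on either strand.

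Fastkd3: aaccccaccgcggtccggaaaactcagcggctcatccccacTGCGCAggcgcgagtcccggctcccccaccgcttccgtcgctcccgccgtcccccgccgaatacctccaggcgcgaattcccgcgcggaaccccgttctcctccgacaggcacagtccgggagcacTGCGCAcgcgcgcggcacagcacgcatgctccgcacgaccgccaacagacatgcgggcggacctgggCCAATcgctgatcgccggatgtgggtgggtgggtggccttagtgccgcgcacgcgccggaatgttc

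CCAAT occurred in 37.4% and TGCGCA in 7.76% of 32851 promoter windows of this length, and a match is a description of the letters only. Mtrr had 2.35 to 3.75 FPKM in EChet embryos, median 3.01, against 5.04 to 6.08 FPKM in WT embryos, median 5.35 (log2 difference -0.83, SE 0.09, limma adjusted p = 0.00041). Fastkd3 had 2.48 to 3.63 FPKM in EChet embryos and 4.17 to 5.91 FPKM in WT embryos (log2 difference -0.82). Neither gene overlapped between the groups. Of 33 other tested genes within 1.5 Mb, 0 were called, with log2 differences of -0.61 to 0.38. Scaled over all 26 embryos, Mtrr had 2.46 to 3.18 FPKM in the Traf7-ECko embryos deposited beside EChet, against 3.63 to 6.44 FPKM in the Traf7-GLOko embryos deposited beside WT. Fastkd3 had 2.28 to 3.00 FPKM in Traf7-ECko and 2.63 to 5.78 FPKM in Traf7-GLOko embryos, which overlapped.

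Of 23 imprinted genes 7 rose, against 7.17% of all genes, and 0 fell (median 0.27). Grb10, an adaptor that restrains growth signalling, had 192 to 207 FPKM in EChet and 149 to 170 FPKM in WT embryos (log2 difference 0.30). Igf2r, the receptor that clears IGF2, had 19.9 to 32.7 FPKM in EChet and 15.7 to 19.8 FPKM in WT embryos (log2 difference 0.50), and Peg10, a retrotransposon-derived gene, 140 to 184 FPKM in EChet and 91.8 to 134 FPKM in WT embryos (log2 difference 0.50). Peg3, Plagl1, Zdbf2 and Usp29 were the others. With the length correction 4 of 23 were called.

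Of 20 sterol synthesis genes 4 fell, against 6.31% of all genes, and 0 rose (median -0.27). EChet 7 was the lowest embryo in 17 of the 20, and WT 3 or WT 6 the highest in 10 and 9, while the mean log2 deviation of the list in WT 5 (-0.15) and in the library labelled WT 4 (-0.18) lay within the EChet range. Without WT 3, and likewise without WT 6, 2 of the 20 fell. Mvd, a mevalonate pathway decarboxylase, had 16.1 to 22.5 FPKM in EChet and 24.6 to 36.5 FPKM in WT embryos, with no overlap (log2 difference -0.54, SE 0.10, limma adjusted p = 0.0031). Mvk, which phosphorylates mevalonate, and Fdft1, squalene synthase, overlapped between the groups and had log2 differences of -0.35 and -0.41. Of 23 cell cycle genes 4 rose, the mitotic genes Cenpf (0.42), Cenpe (0.35), Mki67 (0.34) and Top2a (0.22), and Aurkb fell (-0.13), against 7.17% of all genes called higher and 6.31% lower. With the length correction 2 of the 23 rose and 1 fell.

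Genes tied to TRAF7 and to endothelium were then counted. Of 13 genes of the MEKK3 cascade 3 were called higher, against 7.17% of all genes: the kinase Map3k2, with 1.41 to 2.26 FPKM in EChet and 1.08 to 1.39 FPKM in WT embryos (log2 difference 0.51), and the transcription factors Mef2c (0.40) and Mef2a (0.22). Map3k3 (0.12, adjusted p = 0.24 by limma), Map2k5 (-0.15, 0.12) and Mapk7 (-0.12, 0.13) were not called. Of 18 endothelial genes 2 fell, against 6.31% of all genes: Cldn5, a tight junction protein, with 15.6 to 19.6 FPKM in EChet and 20.1 to 22.9 FPKM in WT embryos (log2 difference -0.25), and Plvap, of fenestrated capillaries (-0.24). Of 16 flow response genes 1 fell, the arterial connexin gene Gja4 (-0.35), a share near that over all genes. With the length correction 0 genes of these 3 lists were called, and Mef2a stood at -0.01. Klf2 had 3.38 to 5.36 FPKM in EChet and 3.97 to 6.12 FPKM in WT embryos (log2 difference -0.25, limma adjusted p = 0.16), and Tek, whose promoter drives the Cre, 7.76 to 11.1 FPKM in EChet and 7.10 to 9.79 FPKM in WT embryos (log2 difference 0.12, limma adjusted p = 0.48).

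Patterning lists showed few calls. Of 16 posterior Hox genes 1 fell, Hoxc9, with 4.70 to 6.51 FPKM in EChet and 6.79 to 11.8 FPKM in WT embryos (log2 difference -0.51), beside a list median of -0.49, a share near the 6.31% of all genes called lower. WT 6 was the highest embryo in 14 of the 16 and EChet 4 the lowest in 9, and the median was -0.35 without WT 6, -0.34 without EChet 4. Without EChet 7, 4 of the 16 fell, and with the length correction 0. The anterior and middle Hox list had 0 of 21 called (median -0.02), the tail bud list 0 of 16 (median -0.21), the early neuron list 0 of 20 (median -0.15) and the primitive erythroid list 0 of 17 (median -0.33). The cardiomyocyte list had 0 of 22 called with a median of 0.80, a direction that rests on WT embryos standing apart: without WT 3, WT 6 and the library labelled WT 4 the median was -0.05. Nppa, atrial natriuretic peptide, was at 0.62 with all embryos and at -0.43 without the library labelled WT 4. In the macrophage list 1 of 10 tested genes fell, against 6.31% of all genes. This was Tyrobp, an adaptor of myeloid receptors, with 0 to 0.147 FPKM in EChet and 0 to 0.892 FPKM in WT embryos. In 9 further lists of 10 to 18 tested genes 1 gene each was called, no more than the 13.5% called over all genes. The neural crest receptor Erbb3 (0.35) and the circadian factor Clock (0.47) were higher. The Wnt feedback gene Nkd1 (-0.33), the glycolytic enzyme Pfkm (-0.16), the AP-1 subunit Jund (-0.38), the serine synthesis enzyme Phgdh (-0.19), the MHC gene H2-D1 (-0.52), the proteasome subunit Psmb7 (-0.20) and the histone gene Hist1h4c (-1.25) were lower. Of 17 p53 target genes Zmat3 rose (0.48) and Bax (-0.20) and Phlda3 (-0.43) fell, against 7.17% of all genes called higher and 6.31% lower. Of 6 X-linked genes known to be higher in females Usp9x (0.50) and Ddx3x (0.20) rose, against 7.17% of all genes. Of the embryos, 1 of 7 EChet and 2 of 6 WT were female, and the cause of these calls was not tested.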

How the data were processed

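RNA of whole mouse embryos at E9.5 was sequenced on an Illumina platform. According to the submitters' processing notes the authors used STAR and the mm10 build (the STAR version was not given in the sources used here) and deposited FPKM per gene in 2 tables, 1 for each control set with its knockouts. Both tables held the same genes and lengths. Multiplied by gene length, all deposited FPKM values were whole multiples of 1 read within 0.01 (100% in every library), so reads could be recovered; the implied library size was 0.997 to 1.03 times the recovered reads. In 27 genes a date stood for the gene name and was replaced by the reference symbol. Each embryo's values were scaled by a median-of-ratios factor (0.988 to 1.00), a pseudocount of 0.1 was added, genes under a mean of 0.1 FPKM were left out, and EChet and WT were compared with limma 3.58.1 (R 4.3.3; trend and robust options) with Benjamini-Hochberg adjustment at 0.05. The method was tested on simulated reads in which genes varied independently, with no length trend and no outlying embryos. That test does not cover these features of the data. The count test of the study was not used since FPKM were deposited. Single values were compared by exact permutation over embryos (SciPy 1.17.1).

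Genes named were the 15 of highest level, the 20 of largest excess spread, the 12 higher and 12 lower of smallest p, leading members of 37 gene lists, and a fixed set with Traf7 and its pathway. The members and lists were chosen with earlier results of these data known. Alternatives covered the pseudocount, filters, scaling, limma-voom on recovered reads, gene length (loess), Xist as covariate, the replicate block, and each embryo left out. RefSeq promoters run from 250 bases before to 50 after a start. Of the called sterol synthesis genes, 1 is not reported here.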

Additional observations from a re-analysis of the deposited data

Results flagged for a closer look

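Within each group the highest or lowest embryo was compared with the range of the rest. Of 136 such groups of values 16 had an embryo far from the others, where chance gives about 1 in 20 for a single group. The groups of values are not independent, since lists share genes and the same 13 embryos recur. An excess over chance can therefore not be read from this count. Values of lists are mean log2 deviations from the mean of all 13 embryos.

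WT 3 had the highest value of the hypoxia response list, at 1.03, with Bnip3, a mitophagy receptor gene, at 61.5 FPKM. It was also highest in the glycolysis list, at 0.50, the immediate early list, at 0.54, the ATF4 target list, at 0.53, and the circadian clock list, at 0.49. The library labelled WT 4 had the lowest value of the cardiomyocyte list, at -3.30, and the lowest Traf7 level, at 11.1 FPKM. WT 2 was lowest in the imprinted list, at -0.57, where Meg3, Rian and Mirg were near 0. WT 6 was lowest in the neural crest list, at -0.40.

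Among EChet embryos, EChet 3 was lowest in the anterior and middle Hox list, at -0.23. EChet 7 was highest in the p53 target list, at 0.12, lowest in the sterol synthesis list, at -0.42, and highest in mitochondrial rRNA, at 0.0228% of gene reads. EChet 6 was highest in the share of FPKM held by the 10 genes of highest mean level over both groups, at 15.2%, and by the 100 such genes, at 33.3%. Gm23935, the RNA gene of 57 bases that is among them, was also highest in EChet 6, at 27504 FPKM against 15109 to 24567 FPKM in the other embryos.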

How the results depend on the processing

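The count of genes called was 2354 and lay within 1.5 times of that under pseudocounts, filters, scalings, limma-voom (2435), Xist as a covariate (1880) and male embryos only (1635). It was 1054 with the gene length correction, 449 higher and 605 lower, and 1282 without WT 3, WT 6 and the library labelled WT 4. Leaving out 1 embryo at a time gave 1722 to 2453 genes, and 45 to 75 with a log2 difference of at least 1. Of those larger changes there were 11 with a pseudocount of 1, 24 with a filter at 1 FPKM, 23 among protein-coding genes, 17 with both the block by replicate number and the length correction, and 11 among genes with at least 100 reads per embryo on average, which was chosen after seeing the data. The spread difference was -2.18 (exact permutation p = 0.148) over 500 genes, and -10.7 to -6.04 with 1 embryo left out. The lists of most variable genes shared 45 of 100 and 261 of 500, and 84 to 95 of 200 with 1 embryo left out. The cause of these shifts was not tested. The replicate block, where labels share numbers 1 to 6, gave 1294 calls, and 264 with the gene length correction. Deviations of same-numbered embryos had correlations of -0.04 to 0.06, and 1 of 6 was best with its own number, so the numbers were not used as pairs.

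Values of named genes other than Traf7 were followed under each alternative. Of these, 2195 stayed as they were, called or not called, 300 lost their call, 2 gained one and 10 changed sign. The values that changed sign were these. Scrib was at -0.045 with the gene length correction, -0.027 with it and the replicate block, and -0.018 to 0.043 with 1 embryo left out (-0.018 without WT 1), against 0.016. Mef2a was at -0.014 with the length correction and -0.011 with it and the replicate block, against 0.22. Bnip3 was at -0.21 to 0.11 with 1 embryo left out (0.11 without WT 3) and 0.084 without WT 3, WT 6 and the library labelled WT 4, against -0.11. Nppa was at -0.43 to 0.99 with 1 embryo left out (-0.43 without that library), -0.34 without these 3 and -0.44 in male embryos, against 0.62. Depth limits small RNA genes and genes under 100 reads per embryo most.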
